A study of Homo sapiens with 8 samples.

Results

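Histone genes were described here in D283 MED cells, an established medulloblastoma line with features of Group 3 and Group 4 tumors, before and after induction of OMOMYC, a dominant-negative MYC mini-protein. Members were the protein-coding genes with a GENCODE symbol of the form HIST1H to HIST4H, H1F0, H1FX, H2AF or H3F3. GENCODE 29 lists 85 such genes, and 82 of them were among the 60668 genes (19934 protein-coding) of the count files; HIST1H3B, HIST1H3C and HIST2H3PS2 were not analysed here. By symbol, 68 were replication-dependent (6 H1, 17 H2A, 18 H2B, 12 H3 and 15 H4 genes) and 14 were replacement genes (2 H1, 9 H2A and 3 H3 genes).

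Both groups were D283-OMO cells, which carry a doxycycline (DOX)-inducible FLAG-tagged OMOMYC transgene delivered by lentivirus (pSLIK-OMOMYC) and selected with hygromycin. The 4 OMO cultures were untreated, and the 4 OMO+DOX cultures received DOX for 72 h; the study describes them as independent biological replicates. DOX-treated cells without the transgene were not analysed here, so DOX and OMOMYC cannot be told apart, and reads of the transgene, whose insert derives from MYC, were not counted apart from those of MYC. PolyA+ RNA was sequenced, and each library held between 38390696 and 54020506 estimated fragment counts assigned to genes.

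Replication-dependent histone genes supply the bulk of chromatin protein while DNA is copied. Their mRNAs are known for ending, in dividing animal cells, without a poly(A) tail: the pre-mRNA is cut just after a stem-loop that is bound by SLBP, with the U7 snRNP and its LSM10 and LSM11 subunits. Replacement genes are expressed throughout the cell cycle and have introns or long 3' ends in most cases. Most give ordinary polyadenylated mRNAs, which a polyA+ library reads in full, while it samples the replication-dependent class in part.

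The stem-loop and the poly(A) signal mark these alternative ends, and both were read from the GENCODE 29 transcripts on GRCh38. Stem-loops of some of the tested H2A, H2B and H4 genes and of H2AFX are shown 5' to 3'. The 16-base stem and loop are in capitals, and coordinates are those of the capitals.
HIST3H2A (chr1:228457369-228457384, minus strand): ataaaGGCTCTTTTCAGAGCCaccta
HIST1H2AC (chr6:26124669-26124684, plus strand): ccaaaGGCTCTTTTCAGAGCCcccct
HIST2H2BE (chr1:149886188-149886203, minus strand): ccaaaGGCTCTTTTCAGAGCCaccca
HIST1H2BD (chr6:26158587-26158602, plus strand): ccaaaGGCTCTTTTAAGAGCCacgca
HIST2H4A (chr1:149833032-149833047, plus strand): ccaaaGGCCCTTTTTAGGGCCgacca
HIST1H4J (chr6:27824459-27824474, plus strand): taaaaGGCCCTTTTCAGGGCCaccct
H2AFX (chr11:119094898-119094913, minus strand): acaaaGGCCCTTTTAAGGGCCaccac

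A stem-loop was found in an annotated transcript of 33 of the 82 genes. Models that end before the stem-loop cannot show it, so the other genes may still have one. The form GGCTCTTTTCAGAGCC occurred in 17 genes (6 H2A, 8 H2B and 3 H3). The 8 H4 genes with a stem-loop had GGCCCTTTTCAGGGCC (5 genes) or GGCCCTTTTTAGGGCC (3 genes). H2AFX, which codes for the H2A variant phosphorylated at DNA breaks, was the only replacement gene with a stem-loop in its model, and its transcript ran on for 1044 bases past it.

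Of the 68 replication-dependent genes, 22 had a model that reached 200 bases or more past the stem-loop, and 16 of these held AATAAA or ATTAAA in the last 50 bases of such a transcript. The last 30 bases are shown for some of the tested genes with such a transcript, H2AFX included, with that hexamer in capitals. Those of 3 replacement genes without a stem-loop in their models follow for comparison, and coordinates are those of the hexamer.
HIST3H2A (chr1:228456997-228457002, minus strand): tctgatATTAAAagtatttatgatctctaa
HIST1H2AC (chr6:26139088-26139093, plus strand): tAATAAAaggtaatgcaaagggagaggaaa
HIST2H2BE (chr1:149884477-149884482, minus strand): gttattAATAAAgttaccaattaatttaaa
HIST2H4A (chr1:149834607-149834612, plus strand): ctctgAATAAAgagcagaatgattggcgtc
H2AFX (chr11:119093893-119093898, minus strand): gactaattttATTAAAggattgtttttttt
H1F0 (chr22:37807411-37807416, plus strand): ttaaAATAAAttggaaaagggagaaactga
H2AFZ (chr4:99948102-99948107, minus strand): ggataagttcAATAAAggtcatatcccaaa
H3F3B (chr17:75776448-75776453, minus strand): atgagactaaAATAAAatttttgaagttaa

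Both classes had lower summed levels in OMO+DOX, and the replication-dependent class lost the larger share. Summed over its 68 genes, the replication-dependent class had 118, 116, 131 and 119 CPM (counts normalised to library size, scaled by TMM) in the OMO libraries and 58.9, 62.8, 59.7 and 65.3 in the OMO+DOX libraries, a mean of 121 ± 6.75 against 61.7 ± 2.96 (SD, n = 4 each) and a ratio of 0.511. The replacement class summed to 3279 ± 157 CPM in OMO and 2581 ± 57.9 in OMO+DOX, a ratio of 0.787. Without H2AFX, the replacement gene with a stem-loop in its model, that ratio was 0.808. The groups did not overlap in any of these sums, and replication-dependent genes made up 3.55% ± 0.10 of all histone CPM in OMO and 2.33% ± 0.11 in OMO+DOX. In a culture, fewer cells in S phase and less histone mRNA per cell cannot be told apart.

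The per-gene test, edgeR's quasi-likelihood test, covered the 15222 genes that exceeded 1 CPM in 4 or more of the 8 libraries, and p was adjusted over all of them by the Benjamini-Hochberg method. It included 18 of the 68 replication-dependent genes (26.5%) and 8 of the 14 replacement genes. At an adjusted p below 0.05, 13 replication-dependent genes fell, 2 rose and 3 did not pass; 7 replacement genes fell and 1 rose. Over all genes tested, 38.1% fell and 38.5% rose, so a call in either direction was common, and it says little about a member on its own. The median log2 fold change was -0.66 for the replication-dependent genes tested, -0.55 for the replacement genes tested and 0.01 for all genes tested. Stricter thresholds were taken from the methods of the study, whose text also uses a looser FDR elsewhere. At an FDR below 0.001 and an absolute log2 fold change above 2, which 2.75% of genes passed downwards and 4.38% upwards, 2 replication-dependent genes passed downwards, HIST2H2AA4 and HIST2H2AC, and no replacement gene passed, H2AFX coming nearest. At an FDR below 0.01 the numbers were also 2 and 0.

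The filter shaped which replication-dependent genes were seen. HIST2H2AC, HIST3H2BB and HIST1H4J exceeded 1 CPM in OMO libraries only, and HIST1H2BN in OMO+DOX libraries only, so these 4 had to differ to some degree, and the counts above describe the genes tested without bearing on the class. HIST1H2BG lay just outside the filter, with 0.897 CPM in OMO and 0.58 in OMO+DOX. All libraries of one group lay below all of the other for 11 of the 18 replication-dependent genes lower in OMO+DOX, against 35.4% of all genes tested, and for 2 of them higher, against 36.3%.

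**Figure D1:**
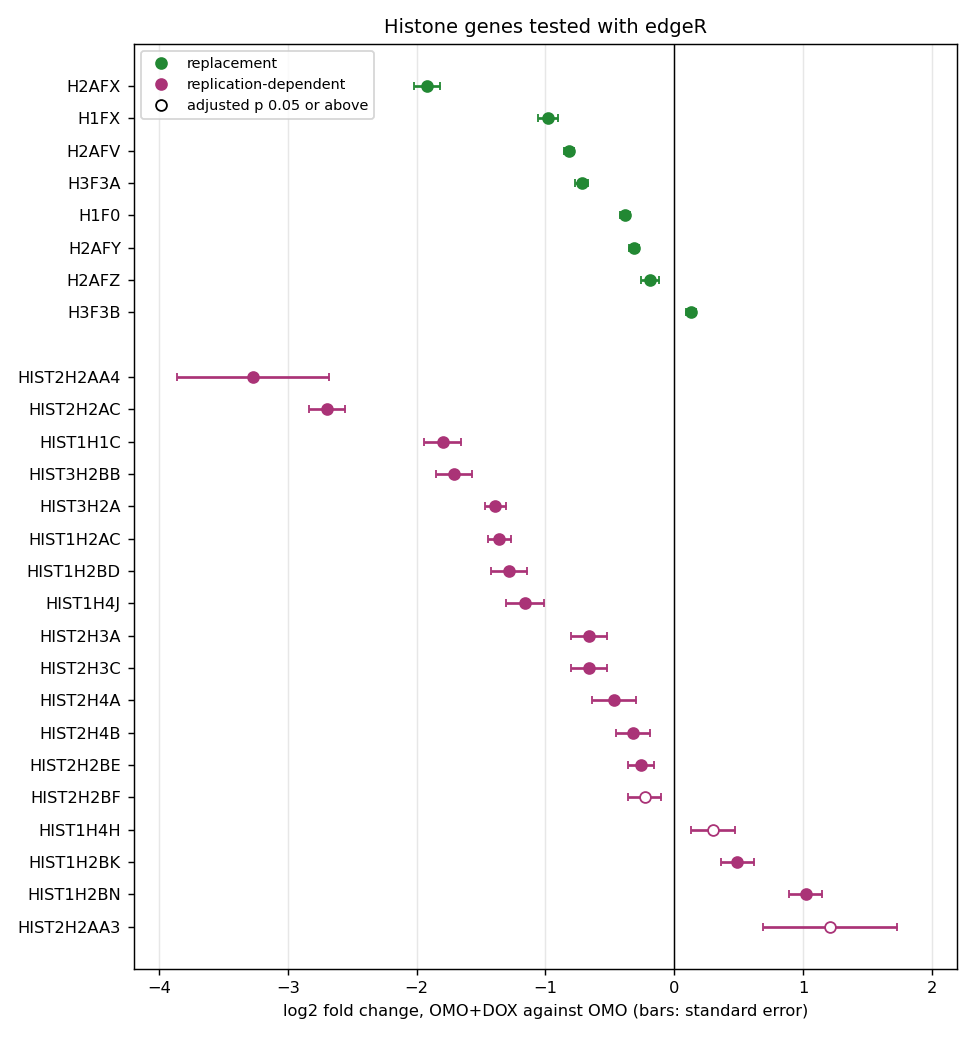
Log2 fold change of OMO+DOX against OMO on the x axis for the 8 replacement and 18 replication-dependent histone genes tested, with bars for the standard error and open points for an adjusted p of 0.05 or above. Replication-dependent genes spread from -3.27 to 1.21, replacement genes from -1.92 (H2AFX) to 0.13 (H3F3B).

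Replacement histone genes were the abundant ones, and H2AFX fell most among them. H2AFX had 112, 123, 146 and 115 CPM in the OMO libraries and 32.8, 26.9, 34.5 and 36.7 in the OMO+DOX libraries. Every OMO+DOX library was below every OMO library, and the fold change was 3.78 downwards (log2 fold change -1.92, SE 0.10, edgeR quasi-likelihood test with Benjamini-Hochberg adjusted p = 1.02e-08). It fell in every alternative tried, by 1.79 to 1.98 on the log2 scale.

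The other H2A variants fell less. H2AFV, which codes for H2A.Z.2, had 98.1, 101, 100 and 100 CPM in OMO and 55.3, 58.8, 58.8 and 53.8 in OMO+DOX, without overlap (log2 fold change -0.82, SE 0.04, edgeR adjusted p = 1.12e-08). Its paralog H2AFZ, which codes for H2A.Z.1, had 298, 332, 377 and 323 CPM in OMO and 276, 292, 305 and 294 in OMO+DOX. Here the groups overlapped, since OMO replicate 1 lay below OMO+DOX replicate 3; the log2 fold change of -0.19 (SE 0.07) had an edgeR adjusted p of 0.0228 and an exact permutation p of 0.0571 (two-sided), and it was -0.06 with an adjusted p of 0.364 when libraries were scaled by size alone and -0.16 with an adjusted p of 0.0695 without OMO+DOX replicate 1. H2AFY, which codes for macroH2A1, ranged from 215 to 221 CPM in OMO and from 170 to 180 in OMO+DOX, without overlap (log2 fold change -0.31, SE 0.04).

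The ratio of the H2A.Z genes moved with DOX. Counts of H2AFZ were 3.04, 3.29, 3.75 and 3.23 times those of H2AFV in the OMO libraries and 4.98, 4.96, 5.18 and 5.47 times in the OMO+DOX libraries. The mean log2 ratio rose by 0.63, and the groups did not overlap. A ratio within a library does not depend on the scaling. This ratio and the 3 others below were chosen after their values had been seen, so they are given without a test.

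The genes for H3.3, the replacement H3 that HIRA and DAXX-ATRX place outside S phase, went in opposite directions. H3F3A had 619, 645, 707 and 621 CPM in OMO and 389, 380, 413 and 391 in OMO+DOX, all lower (log2 fold change -0.72, SE 0.05, edgeR adjusted p = 1.59e-07). H3F3B, which codes for the same protein, had 753, 783, 811 and 757 CPM in OMO and 825, 851, 865 and 845 in OMO+DOX, all higher (log2 fold change 0.13, SE 0.04, edgeR adjusted p = 0.0166). The rise of H3F3B was small, and it did not pass in 5 of 15 alternatives. Among these were the fits without OMO replicate 1, 2 or 4 or OMO+DOX replicate 3, with log2 fold changes from 0.10 to 0.12.

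The count ratio of H3F3A to H3F3B lay between 0.820 and 0.871 in the OMO libraries and between 0.447 and 0.478 in the OMO+DOX libraries, a log2 difference of -0.84. Per kilobase of annotated exon, H3F3A was above H3F3B in OMO (206 against 127 CPM per kb), and the order was the opposite in OMO+DOX (125 against 138). This order depends on the length used. The union of exons has 3146 bases for H3F3A and 6134 for H3F3B. Their single annotated transcripts have from 799 to 1863 and from 468 to 2787 bases. Together the pair came to 1424 ± 67.8 CPM in OMO and 1239.9 ± 27.2 in OMO+DOX (SD, n = 4), without overlap. H3F3B shares 214 exonic bases with UNK on the opposite strand, and the strand setting used in counting is not given in the sources used here.

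Both replacement linker histones fell. H1F0, which codes for the H1.0 of slowly dividing and differentiated cells, was the histone gene with the highest level per kilobase of union exon length, 383 CPM per kb in OMO and 295 in OMO+DOX. That rank depends on the length used. The union has 3146 bases for H3F3A, whose single annotated transcripts have from 799 to 1863, and 2344 bases for H1F0, which has 1 model. H1F0 had 875, 904, 932 and 883 CPM in OMO and 677, 681, 706 and 703 in OMO+DOX (log2 fold change -0.38, SE 0.04, edgeR adjusted p = 4.79e-06). H1FX, which codes for H1.10, had 176, 180, 208 and 165 CPM in OMO and 87.1, 86.7, 90.6 and 105 in OMO+DOX (log2 fold change -0.98, SE 0.08, edgeR adjusted p = 4.77e-07). Neither gene's groups overlapped. Among the OMO libraries, replicate 3 was the highest for 6 of the 8 replacement genes tested.

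**Figure D2:**
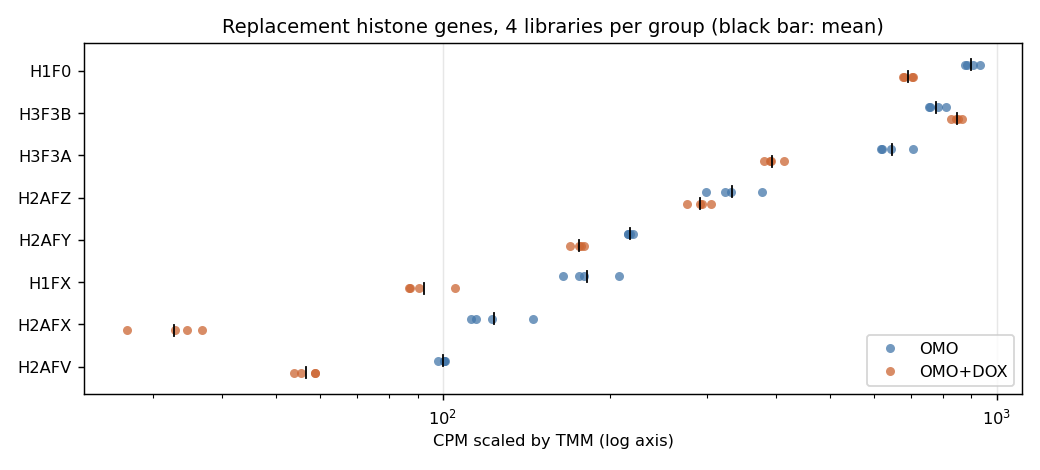
CPM (log axis) of the 8 replacement histone genes tested in each of the 4 OMO and 4 OMO+DOX libraries, with black bars for the group means. H2AFX shows the widest gap between the groups, H3F3B is the one gene higher in OMO+DOX, and H2AFZ the one whose groups overlap.

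Among replication-dependent genes, HIST3H2A alone held 43.5% ± 1.64 of the class's CPM in OMO and 32.5% ± 2.05 in OMO+DOX. It had 53.6, 48.0, 57.6 and 51.1 CPM in OMO and 18.2, 21.6, 18.2 and 22.2 in OMO+DOX, all lower (log2 fold change -1.39, SE 0.08, edgeR adjusted p = 1.91e-08). Without it, the class still summed to 68.2 ± 3.61 CPM in OMO and 41.6 ± 1.04 in OMO+DOX, a ratio of 0.611. HIST3H2A lies at chr1:228456979-228457873 and reaches 58.7 CPM per kb in OMO, less than H2AFX at 76.8.

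The other H2A genes that passed also fell. HIST1H2AC had 8.92, 7.91, 9.13 and 8.27 CPM in OMO and 3.04, 3.49, 3.60 and 3.24 in OMO+DOX (log2 fold change -1.36, SE 0.09, edgeR adjusted p = 3.87e-08). HIST2H2AC had 2.04, 2.25, 2.22 and 2.44 CPM in OMO and 0.335, 0.324, 0.313 and 0.396 in OMO+DOX, from 13.02 to 18.1 estimated counts a library in the latter, and was 6.50-fold lower (log2 fold change -2.70, SE 0.14, edgeR adjusted p = 6.25e-09). In both genes the groups did not overlap. HIST2H2AC had passed the filter through OMO libraries only, so its p and its lack of overlap are descriptions only.

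HIST2H2AA3 and HIST2H2AA4 are near-identical copies whose reads RSEM divides between them, so their single values are uncertain. HIST2H2AA4 had 3.59, 2.86, 4.66 and 4.73 CPM in OMO and 1.03, 0, 0 and 0.550 in OMO+DOX (log2 fold change -3.27, SE 0.59, edgeR adjusted p = 0.000332; from -4.41 without OMO+DOX replicate 1 to -2.83 without OMO+DOX replicate 3), whereas HIST2H2AA3 had 0.449, 1.92, 0.122 and 0.538 CPM in OMO and 1.12, 1.94, 2.39 and 1.67 in OMO+DOX (log2 fold change 1.21, SE 0.52, edgeR adjusted p = 0.0531; 2.27 and 0.000317 without OMO replicate 2). Added together before the fit they had 4.04, 4.80, 4.78 and 5.27 CPM in OMO and 2.15, 1.94, 2.39 and 2.22 in OMO+DOX. The summed copies fell 2.16-fold without overlap (log2 fold change -1.11, SE 0.11, edgeR adjusted p = 1.95e-06), which is inside the fold threshold of the study that HIST2H2AA4 alone had passed.

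**Figure D3:**
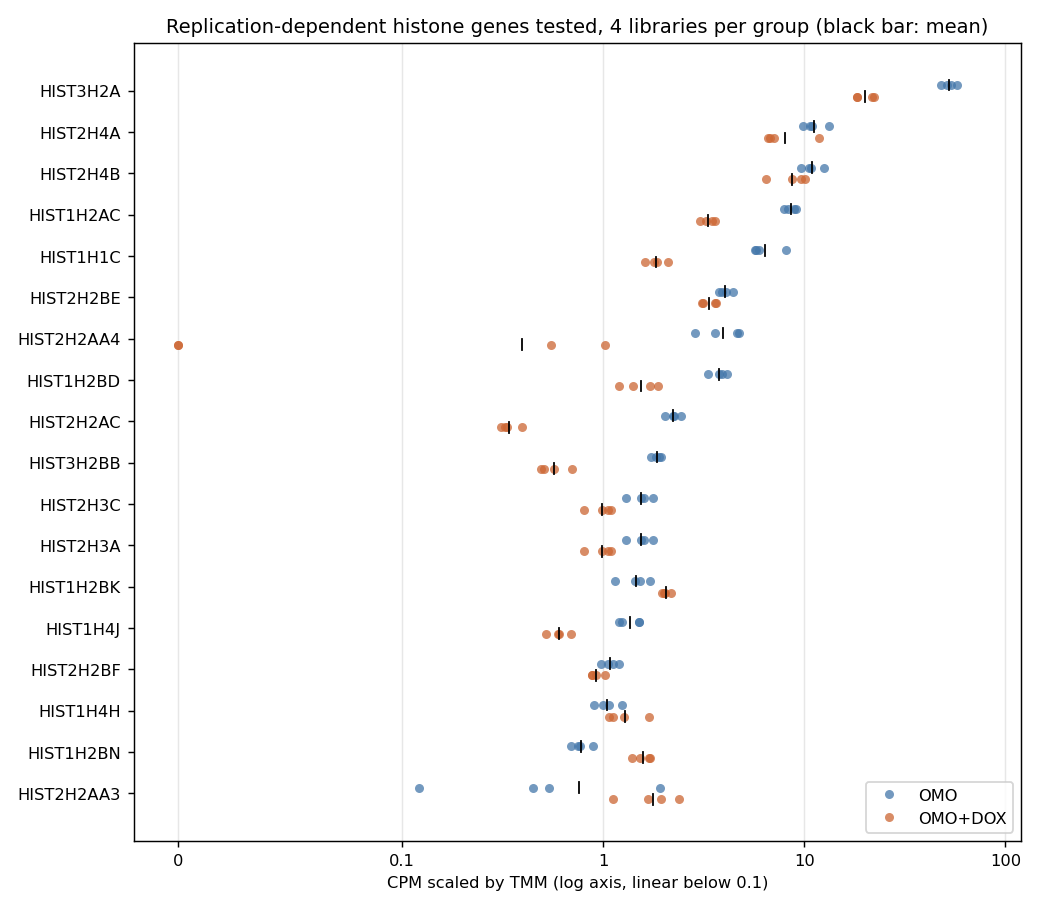
CPM (log axis, linear below 0.1) of the 18 replication-dependent histone genes tested in each of the 4 OMO and 4 OMO+DOX libraries, with black bars for the group means. HIST3H2A stands above the others, HIST2H2AA4 is at 0 in 2 OMO+DOX libraries, and HIST1H2BK and HIST1H2BN are higher in OMO+DOX.

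H2B genes moved both ways. HIST1H2BD had 3.33, 3.89, 4.15 and 3.76 CPM in OMO and 1.87, 1.20, 1.41 and 1.72 in OMO+DOX (log2 fold change -1.28, SE 0.14), and HIST3H2BB fell from 1.85 ± 0.09 to 0.568 ± 0.093 CPM (log2 fold change -1.71, SE 0.14, edgeR adjusted p = 3.41e-07). HIST3H2BB had passed the filter through OMO libraries only, so its p is a description only. HIST2H2BE, the H2B gene with the highest level in OMO, changed little, with 3.90, 4.08, 4.43 and 3.76 CPM in OMO and 3.15, 3.12, 3.64 and 3.61 in OMO+DOX. Its log2 fold change of -0.26 (SE 0.10, edgeR adjusted p = 0.0274) did not pass when libraries were scaled by size alone (adjusted p = 0.203) or when OMO replicate 2 or 3 or OMO+DOX replicate 1 or 2 was left out. HIST2H2BF did not pass either (log2 fold change -0.23, SE 0.13, edgeR adjusted p = 0.14).

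The replication-dependent genes that rose were both H2B genes of the chromosome 6 cluster. HIST1H2BN had 0.755, 0.697, 0.773 and 0.896 CPM in OMO and 1.4, 1.69, 1.72 and 1.52 in OMO+DOX, 2.03-fold higher without overlap (log2 fold change 1.02, SE 0.13, edgeR adjusted p = 2.45e-05). This gene had passed the filter through OMO+DOX libraries only, so its p and its lack of overlap are descriptions only. HIST1H2BK had 1.14, 1.53, 1.71 and 1.43 CPM in OMO and 2.01, 1.97, 2.03 and 2.18 in OMO+DOX, also without overlap (log2 fold change 0.49, SE 0.13, edgeR adjusted p = 0.0046). The GENCODE 29 models of HIST1H2BN span chr6:27837760-27865798, and 393 of their exonic bases overlap HIST1H2AK on the opposite strand. HIST1H2BK, by contrast, has a single model of 381 bases, which holds no stem-loop and may end before one.

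Neighbouring H2A and H2B genes that are transcribed away from each other were compared where both were tested, which was the case for 2 of 11 such pairs with starts within 1000 bases. HIST3H2A and HIST3H2BB start 234 bases apart, and their count ratio was 26.1 to 29.8 in OMO and 31.0 to 38.8 in OMO+DOX, a log2 difference of 0.32. HIST2H2BE and HIST2H2AC start 323 bases apart, and counts of HIST2H2AC were 0.500 to 0.649 of those of HIST2H2BE in OMO and 0.0860 to 0.110 in OMO+DOX, a log2 difference of -2.45, both without overlap between the groups. HIST2H2AC and HIST3H2BB had passed the filter through OMO libraries only, so ratios that hold them had to shift to some degree. The HIST2H2BE model ends 1729 bases past its stem-loop, and the HIST2H2AC model, of 390 bases, does not reach one.

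Of the 4 H4 genes tested, 3 fell and 1 did not pass, and both H3 genes fell. The copies HIST2H4A and HIST2H4B had 9.85 to 13.3 and 9.63 to 12.5 CPM in OMO and 6.60 to 11.8 and 6.47 to 10.04 in OMO+DOX, each with overlap, and neither fall passed under every alternative. Summed, they had 20.6, 22.4, 23.9 and 21.6 CPM in OMO and 15.8, 16.6, 16.5 and 18.3 in OMO+DOX, with no overlap (log2 fold change -0.40, SE 0.06, edgeR adjusted p = 0.000118). HIST1H4J had 1.51, 1.20, 1.24 and 1.502 CPM in OMO and 0.690, 0.523, 0.606 and 0.594 in OMO+DOX (log2 fold change -1.16, SE 0.15, edgeR adjusted p = 1.95e-05). It had passed the filter through OMO libraries only, so its p is a description only.

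HIST1H4H went from 1.05 ± 0.14 to 1.29 ± 0.28 CPM and did not pass (log2 fold change 0.30, SE 0.17, edgeR adjusted p = 0.131). The H3 copies HIST2H3A and HIST2H3C carried the same estimated count in every library, as RSEM divided their reads evenly. Summed with HIST2H3D they had 3.45, 3.17, 2.66 and 3.59 CPM in OMO and 2.07, 2.17, 1.72 and 2.14 in OMO+DOX, without overlap (log2 fold change -0.67, SE 0.12, edgeR adjusted p = 0.000382). HIST2H3A and HIST2H3C each share 173 exonic bases with an H4 copy on the opposite strand.

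In the linker family, HIST1H1C, which codes for H1.2, had 5.69, 5.94, 8.11 and 5.74 CPM in OMO and 1.85, 2.09, 1.62 and 1.78 in OMO+DOX, 3.48-fold lower without overlap (log2 fold change -1.80, SE 0.14, edgeR adjusted p = 2.53e-07). HIST1H1E, which codes for H1.4, was not tested and had 10 to 17 counts a library in OMO and 1 to 3 in OMO+DOX. By family, the summed CPM in OMO+DOX came to 0.285 of that in OMO for replication-dependent H1, 0.382 for H2A, 0.616 for H3, 0.753 for H2B and 0.765 for H4. The corresponding ratios for replacement genes were 0.726 for H1, 0.719 for H2A and 0.871 for H3, and the groups did not overlap in any of these 8 sums.

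The 50 replication-dependent genes below the filter added little. In all they had 246 to 305 counts a library in OMO and 129 to 177 in OMO+DOX, or 5.66 ± 0.40 and 3.21 ± 0.27 CPM. In 10 of them no library had a count, and 19, these included, had at most 3 counts in every library. Of the other 31, the mean CPM was lower in OMO+DOX in 27 and higher in 4. The libraries were apart in 11, all of them lower in OMO+DOX. The same shares were not computed over all genes below the filter, so these counts are descriptions only. HIST1H3H, the highest H3 gene below the filter, had 0.664 CPM in OMO and 0.328 in OMO+DOX, and HIST4H4 had 0.425 and 0.595 with overlapping libraries. In a fit without the filter, 40 of the 50 could be tested and 13 fell (edgeR, adjusted p below 0.05), while 7388 of all 36881 genes fell (20%) and 7842 rose (21.3%) in that fit. None of the 40 rose by this criterion, and 2 were higher at an unadjusted p below 0.05. The 36881 genes include the 15222 that passed the filter, so their shares are not those of genes at a like level.

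The share of genes that passed the filter is given by the 3' end of their models, without a test. Of the 22 replication-dependent genes with a model of 200 bases or more past it, 11 passed the filter, with 8 lower and 1 higher in OMO+DOX. Of the 10 whose models end within 200 bases of it, 4 passed (40.0%), with 3 lower. Of the 36 with no stem-loop in any model, 3 passed (8.33%): HIST1H1C, HIST2H2AC and HIST1H2BK. The median log2 fold changes were -0.47, -1.22 and -1.80 over 11, 4 and 3 genes. Over all genes tested, 38.1% fell and 38.5% rose. Since the filter acted on the levels of these histone genes, the numbers lower or higher and the medians are descriptions only. HIST1H1C, HIST2H2AC and HIST1H2BK have models of 642, 390 and 381 bases, and a model that ends before the stem-loop cannot show one. The shares also went with model length. Of the 25 genes with a model over 1000 bases or more than 1 exon, 44.0% passed, and of the 43 others 16.3%.

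**Figure D4:**
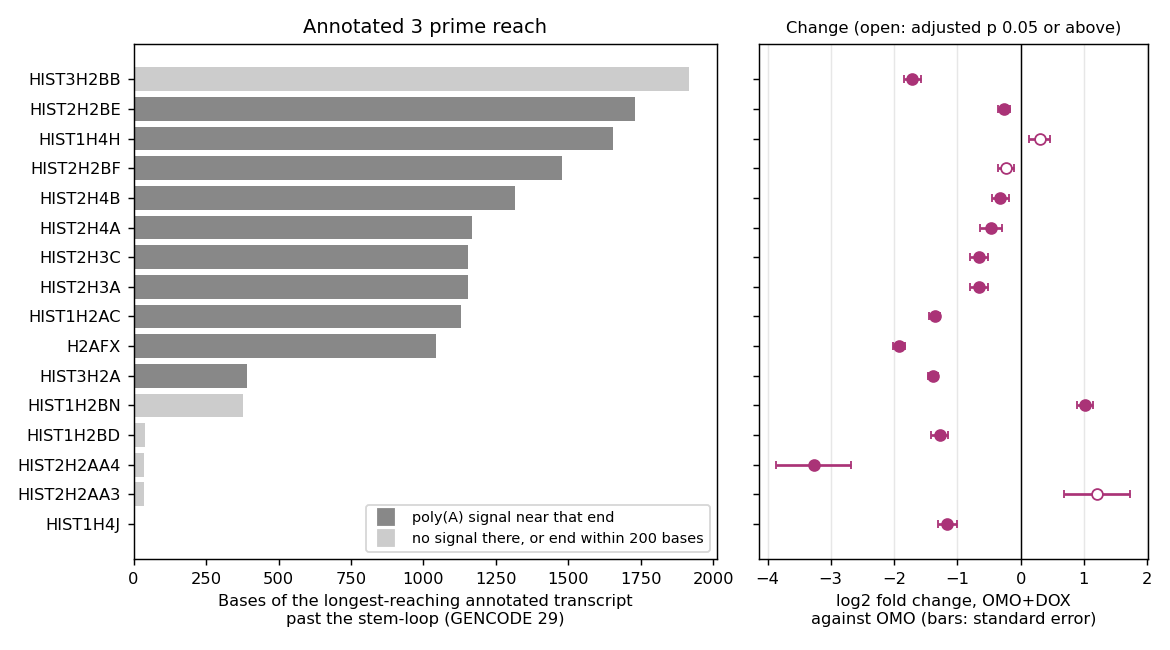
Left, bases from the end of the stem-loop to the furthest annotated GENCODE 29 transcript end for tested histone genes with a stem-loop, dark where AATAAA or ATTAAA lies near that end; right, their log2 fold change of OMO+DOX against OMO with the standard error (open: adjusted p of 0.05 or above). The 2 genes that reach furthest with such a signal, HIST2H2BE (1729 bases) and HIST1H4H (1655), lie close to 0, while HIST3H2BB, HIST1H2AC and H2AFX also reach far and lie below -1.

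Of the 17 replication-dependent genes listed as having polyadenylated mRNAs in differentiated or non-cycling cells, 12 were tested (70.6%), against 26.5% of the class as a whole, these genes included. The list was chosen with earlier results of these data known, so the shares are descriptions only. Among the 12 tested, 8 fell (HIST1H1C, HIST1H2AC, HIST1H2BD, HIST2H2AA4, HIST2H2BE, HIST2H4A, HIST2H4B and HIST3H2A), or 66.7% against 38.1% of all genes tested. HIST1H2BK rose, and HIST2H2AA3, HIST2H2BF and HIST1H4H did not pass. These 17 genes summed to 103 to 118 CPM in OMO and 52.1 to 58.7 in OMO+DOX, most of the class's total in every library.

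Other RNAs that lack a poly(A) tail moved in the same direction, as 38.1% of all genes tested did. Of 31 such RNAs, 5 were tested and all 5 fell: RN7SL1, RN7SL2 and RN7SL3, copies of the signal recognition particle RNA, had log2 fold changes of -1.28, -1.40 and -1.75, RN7SK, which holds the elongation factor P-TEFb, -0.92, and SNORD3A, the U3 RNA of rRNA processing, -1.07. RN7SL3 had 1.14 to 2.67 CPM in OMO and 0.308 to 0.887 in OMO+DOX. It had passed the filter through OMO libraries only, so it had to fall to some degree. The summed CPM of the 31 RNAs was 756, 806, 607 and 359 in OMO replicates 1 to 4 and 287, 279, 240 and 185 in OMO+DOX. The groups did not overlap, but OMO replicate 4 was well below the other OMO libraries. The replication-dependent sum in OMO replicate 4, 119 CPM, lay within the range of the other OMO libraries, 116 to 131. The part of carried-over RNA in the histone values was not tested.

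Among 23 genes for histone pre-mRNA processing and transcription, 11 fell (47.8%) and 7 rose (30.4%), against 38.1% and 38.5% of all genes tested. The median log2 fold change of the list was -0.12. SLBP, the stem-loop binding protein, went from 64.4, 62.9, 69.6 and 62.5 CPM in OMO to 36.0, 36.4, 37.4 and 38.4 in OMO+DOX, all lower (log2 fold change -0.81, SE 0.05, edgeR adjusted p = 2.76e-08). LSM11, of the U7 snRNP, fell from 23.5 ± 1.24 to 14.5 ± 0.51 CPM (log2 fold change -0.70, SE 0.05), while its partner LSM10 had 12.5 ± 1.67 and 14.3 ± 1.20 and did not pass (edgeR adjusted p = 0.0858). NPAT, the coactivator of histone gene transcription, had 25.5 ± 3.36 and 23.4 ± 1.49 CPM and did not pass (log2 fold change -0.12, edgeR adjusted p = 0.234).

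The largest rise in this list was that of UPF1, a helicase of mRNA decay that acts on histone mRNAs when replication stops, from 100 ± 2.81 to 241 ± 11.6 CPM (log2 fold change 1.27, SE 0.05, edgeR adjusted p = 5.13e-10). TUT7 and TUT4, which add uridines to RNA 3' ends, rose by a log2 fold change of 0.52 and 0.45. The largest fall was that of MIF4GD, a partner of SLBP in translation, from 19.7 ± 0.87 to 9.30 ± 0.73 CPM (log2 fold change -1.08). SUPT6H, an elongation factor and histone chaperone, and SRRT, of the cap-binding complex, also fell, by 0.81 and 0.39 on the log2 scale.

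Of 33 histone chaperones and exchange factors, 25 fell (75.8%) and 4 rose (12.1%), against 38.1% and 38.5% of all genes tested. Their median log2 fold change was -0.48. CHAF1B and CHAF1A, which deposit H3 and H4 behind the replication fork, fell from 37.2 ± 1.97 to 9.13 ± 0.26 CPM and from 111 ± 4.18 to 38.0 ± 1.40 (log2 fold changes -2.03 and -1.55, SE 0.05 each). HIRA, the chaperone of H3.3, fell by 0.22 on the log2 scale (SE 0.04), and that fall did not pass when libraries were scaled by size alone (-0.09, edgeR adjusted p = 0.0614). CENPA, the H3 variant of centromeres, fell from 18.0 ± 1.45 to 6.40 ± 0.63 CPM (log2 fold change -1.48, SE 0.08). ATRX, which acts with DAXX on H3.3, had the largest rise, from 133 ± 25.7 to 176 ± 16.6 CPM (log2 fold change 0.41, SE 0.13, edgeR adjusted p = 0.0116). NPM1, NAP1L1 and NCL, the most abundant of the list, fell by 0.78, 0.48 and 0.44 on the log2 scale.

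S-phase genes moved with the histone sums. Of 25 such genes, 23 fell (92.0%, against 38.1% of all genes tested) and none rose in edgeR's test (none either at an unadjusted p below 0.05 or in DESeq2). The median log2 fold change was -1.66, and CCNE1 (0.12) and POLA1 (-0.14) did not pass. PCNA, the sliding clamp, fell from 155 ± 11.8 to 84.1 ± 2.66 CPM (log2 fold change -0.88), and RRM2, a subunit of ribonucleotide reductase, fell most, from 201 ± 6.86 to 31.7 ± 1.21 CPM (log2 fold change -2.66, SE 0.05). MCM2, MCM3 and MCM4, of the replicative helicase, fell by 1.71, 1.58 and 1.85. The summed level of the 25 genes was 2541 to 2799 CPM in OMO and 857 to 897 in OMO+DOX. The part of a change in the share of cycling cells in the histone values was not tested.

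**Figure D5:**
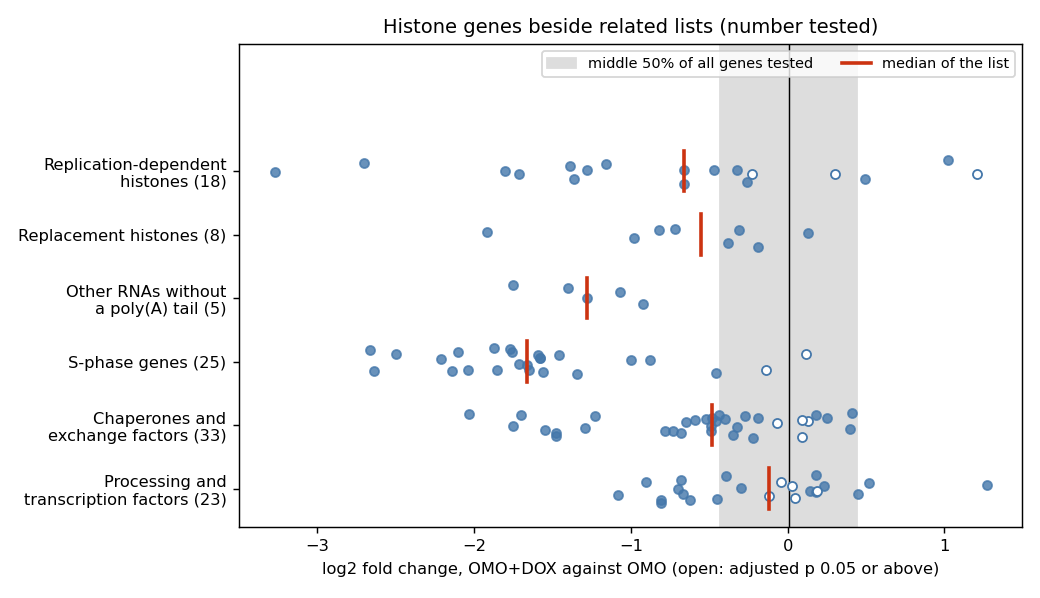
Log2 fold change of OMO+DOX against OMO for each tested gene of 6 lists, with red bars for the list medians, the grey band for the middle 50% of all 15222 genes tested and open points for an adjusted p of 0.05 or above. The S-phase genes (median -1.66) lie lowest, while the replication-dependent histones (-0.66) spread over both sides of 0.

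Promoter letters were read for the 73 members with an entry in RefSeq's table for GRCh38.p14, over 250 bases before to 50 after the start and on both strands. CACGTG, the E-box letters that MYC and MAX bind, occurred in 0 of 61 replication-dependent and 0 of 12 replacement promoters and in 7.26% of all 35116 promoters of the table. CCAAT (or ATTGG) occurred in 83.6% of replication-dependent and 83.3% of replacement promoters, against 34.6% of all. TATAAA (or TTTATA) occurred in 65.6% and 33.3%, against 11.5%. These shares describe letters in the window and not binding.

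The line's markers were present in both groups, and most were lower in OMO+DOX. All 10 medulloblastoma markers were tested, and 8 fell and 2 rose, while 38.1% of all genes tested fell and 38.5% rose. Their median log2 fold change was -1.99, with a range from -3.01 to 0.73. At an FDR below 0.001 and an absolute log2 fold change above 2, 5 of them passed downwards, against 2.75% of all genes tested. OTX2 had 1048 ± 17.4 CPM in OMO and 510 ± 1.79 in OMO+DOX (log2 fold change -1.04). The part of this shift in the histone values was not tested. MYC read 939 ± 75.6 and 1123 ± 56.8 CPM, with transgene reads included where they matched it. Of 10 markers of other cell types, 3 passed the filter, and all 10 together came to 23.1 to 24.3 CPM in OMO and 25.7 to 29.7 in OMO+DOX, most of it COL1A1 (22.1 and 23.4 CPM). CDH5 had no count in OMO and 1.85 CPM in OMO+DOX; the part of such genes in the histone values was not tested.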

How the data were processed

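PolyA+ RNA of 4 untreated (OMO) and 4 DOX-treated (72 h, OMO+DOX) D283-OMO cultures was prepared with the TruSeq Stranded mRNA kit. Trim Galore, STAR (GRCh38, GENCODE 32) and RSEM were run in turn by the authors, who deposited expected counts per gene, 1 file a library; tool versions are not given in the sources used here.

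Expected counts were rounded and tested with edgeR 4.0.16 (R 4.3.3): TMM scaling, a filter of over 1 CPM in 4 or more of the 8 libraries, glmQLFit and glmQLFTest without covariates, and Benjamini-Hochberg adjustment over 15222 genes. Within groups, edgeR's biological coefficient of variation came to 0.0745. The scripts were tested on simulated data. Single values were compared with exact permutation tests (two-sided; smallest p 0.0286). Sums and list counts were described without a test. CPM per kb used the union exon length of GENCODE 29, whose transcripts also gave the sequences; its models may differ from those of GENCODE 32. The replicate numbers were not taken to pair the libraries.

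Classes follow the symbol. Named were all tested replacement genes, the 3 highest genes and the largest called rise and fall per replication-dependent family, members past the study's thresholds or next to the filter, tested members of the poly(A) list, and of other lists the 3 highest, the extremes and 10 preset genes; SNORD3A, RN7SL3, TUT4, TUT7, CCNE1, POLA1, CDH5, OTX2, HIST3H2BB and HIST1H4J were added after their values were seen. Members and lists were chosen with earlier results of these data known. Alternatives were other scalings (DESeq2 1.42.0 size factors, library size only), DESeq2's Wald test, other filters, a replicate block, merged copies, and leaving out each library; the sum without HIST3H2A or H2AFX was added after seeing the data. Of the 26 members tested, 18 had counts that were not whole in some library, because RSEM shares reads between copies or overlapping genes.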

Additional observations from a re-analysis of the deposited data

Results flagged for a closer look

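In 62 groups of 4 libraries, 1 for each tested member, summed set of copies or class sum in each treatment, Dixon's criterion for the gap between an extreme library and its nearest neighbour would be met by chance in about 3.1 (5% of groups); it was met in 2. HIST1H1C in OMO replicate 3, at 8.11 CPM, lay far above the other OMO libraries (5.69 to 5.94); without that library the fall was 1.66 on the log2 scale. HIST2H4A in OMO+DOX replicate 4, at 11.8 CPM, lay far above the other OMO+DOX libraries (6.60 to 7.08). In the same library its copy HIST2H4B was the lowest, at 6.47 CPM against 8.69 to 10.04, and the summed copies had 18.3 CPM against 15.8 to 16.6.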

How the results depend on the processing

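Of the 23 members called, 18 were called in every alternative that could be run; H2AFZ, H3F3B, HIST2H2BE, HIST2H4A and HIST2H4B were not called in some, and HIST2H2AA3 and HIST1H4H passed in some. No member changed direction. Scaling by library size alone moved the median of all genes from 0.01 to 0.14 and the share of calls that were higher from 50.3% to 60.3%; the classes then had medians of -0.53 (replication-dependent) and -0.42 (replacement), and log2 ratios of the summed levels of -0.84 and -0.22 (against -0.97 and -0.34), with 4 replication-dependent genes, 7 chaperones and 1 S-phase gene higher. NPAT (0.00), CPSF2 (0.08) and ASF1A (0.06), none of them called, then had the other sign, as did NCBP1 (0.00) without OMO replicate 3. Without a filter on low counts, 26 replication-dependent genes and 11 other RNAs without a poly(A) tail fell and 4 processing genes rose. The medians were then -0.89 and -0.37, over more genes tested. With more than 1 CPM asked of more than 4 libraries, 1 replication-dependent gene rose. With copies merged, the replication-dependent median was -1.11, over fewer genes. Leaving out HIST3H2A made the replication-dependent log2 ratio -0.71. Leaving out each library gave a replication-dependent median of -0.74 to -0.57, 0 to 1 replacement genes higher (0 without OMO replicate 1, 2 or 4 or OMO+DOX replicate 3), 4 to 8 processing genes higher (4 without OMO+DOX replicate 3) and 2 to 4 chaperones higher (2 without OMO+DOX replicate 1 or 2); the cause was not tested. The replicate numbers did not pair the libraries (correlations of deviations of 0.157, 0.144, 0.241 and -0.176 for same-numbered libraries); with a replicate block 11805 genes were called against 11661, and among the members the call changed for HIST2H2AA3 (1.41, adjusted p = 0.0143). The filter of 1 CPM left 56 members out. Near-identical copies and genes sharing exons are limited by read assignment.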
